A study of Mus musculus with 24 samples.

Results

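The nuclear-encoded subunits of the oxidative phosphorylation machinery were followed across 8 groups of mouse gut RNA-seq libraries. The genes were taken by symbol: protein-coding genes whose names mark them as subunits of complex I (Nduf a, b, c, s and v), complex II (Sdh a to d), complex III (Uqcr), complex IV (Cox 4 to 8 followed by a, b or c) or complex V (Atp5), leaving out the assembly factors named Ndufaf and 12 name matches annotated as pseudogenes or other non-coding genes. This gave 82 of the 39179 genes in the count tables, namely 37 of complex I, 4 of complex II, 8 of complex III, 16 of complex IV and 17 of complex V. Of these, 79 had enough reads to be tested, and Cox6a2, Cox7b2 and Cox8c, with 77, 3 and 1 reads over all 24 libraries, did not.

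The respiratory chain sits in the inner mitochondrial membrane. Complexes I and II pass electrons from NADH and succinate to ubiquinone, complex III passes them to cytochrome c, and complex IV passes them to oxygen. The proton gradient that complexes I, III and IV build drives ATP synthesis by complex V. Most subunits are encoded in the nucleus and the rest by the mitochondrial genome, and several complex IV subunits exist as alternative isoforms that differ between tissues, such as the heart and skeletal muscle forms Cox6a2, Cox7a1 and Cox8b. Colonocytes, the absorptive cells of the large bowel, are known to draw much of their energy from mitochondrial oxidation of butyrate. The name rule misses true subunits with other names (Ndufab1, Cox4i1, Cox4i2 and Cyc1), which were followed as a separate list. It also takes in genes that are not classical subunits: Atp5s, an ATP synthase coupling factor, Cox7a2l, which helps join complexes into supercomplexes, Ndufa4l2, and Ndufa4, a protein first assigned to complex I and now to complex IV. The 13 mitochondrially encoded subunits were listed at 0 reads in every library, so only the nuclear part of each complex was measured.

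Each group had 3 libraries, made from poly(A) RNA of dissected tissue. The cecum came from Cdx2-/-;Apc+/- mice (compound mutant), from Cdx2-/- mice, from Cdx2+/- mice and from wild-type (WT) mice. The stomach came from WT mice. The ileum came from Cdx2-/-;Apc+/- mice (compound mutant ileum) and from Apc+/- mice. The homeobox protein Cdx2 controls intestinal identity, and Apc is a tumour suppressor that restrains Wnt signalling. The Cdx2-/- state was conditional: floxed Cdx2 was deleted by a tamoxifen-dependent Cre driven by the CYP1A1 (Ah) promoter, which beta-naphthoflavone induces, in Cdx2f/f::AhCreERT mice. Compound mutants also carried one ApcD14 allele. WT, Cdx2+/- and Apc+/- mice were untreated, so the Cdx2 deletion and the tamoxifen and beta-naphthoflavone treatment cannot be told apart. The 6 Cdx2-/- cecum libraries, whose sample codes follow different schemes for replicates 1 to 3 and 4 to 6, were kept as set 1 and set 2 and their means averaged where Cdx2-/- cecum is compared as a whole. For replicates 1 and 3 of the Apc+/- ileum, the genotype entry names floxed Cdx2 and Cre while the description gives a non-floxed Cdx2 allele, and the titles were followed. Ages are not given, and no source says that replicates were separate animals: the p-values here rest on differences among these samples, which can be technical.

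Libraries held 36567685 to 87975179 reads assigned to genes. Cdx2 itself was at 151, 122 and 137 CPM (counts per 1000000 reads, scaled with TMM factors) in compound mutant cecum, 287, 168 and 165 in set 1 and 148, 130.0 and 349 in set 2 of Cdx2-/- cecum, and 118, 115 and 116 in Cdx2+/- cecum, against 623, 663 and 408 in WT cecum. The Cdx2-/- libraries were thus below WT cecum but not below Cdx2+/- cecum. In ileum its level was 78.9, 178 and 36.9 CPM under the label Cdx2-/-;Apc+/- and 90.1, 63.3 and 112 CPM under the label Apc+/-, so the level of Cdx2 did not separate them. Several libraries stood apart within their group and are named beside the results they touch: WT cecum replicate 3, compound mutant ileum replicate 2, set 1 replicate 1 and set 2 replicate 6. Summed over 7 colonocyte markers, all found, the level was 1256, 204 and 1549 CPM in compound mutant cecum, 2529, 162 and 151 in set 1, 468, 968 and 374 in set 2 and 5962, 5998 and 4916 in Cdx2+/- cecum, against 40089, 37492 and 21989 in WT cecum. The 6 gastric surface markers ran the other way, at 1543 to 3097 CPM in compound mutant cecum, 5090.1 to 22793 in set 1, 1933 to 5216 in set 2 and 25229.9 to 27259.7 in Cdx2+/- cecum, against 7.16 to 666 in WT cecum. Of 4 chief cell markers the summed level was 115613 to 160901 CPM in WT stomach, and 9 ileal enterocyte markers summed to 324, 13655 and 1358 CPM in compound mutant ileum and 2970.5, 2340.5 and 5149 in Apc+/- ileum.

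As a group the 82 genes held about 1% of all gene reads. Their summed share was 0.826% ± 0.0119 in compound mutant cecum, 1.05% ± 0.168 in Cdx2-/- cecum (n = 6), 1.33% ± 0.0872 in Cdx2+/- cecum, 1.40% ± 0.122 in WT stomach and 1.49% ± 0.0937 in WT cecum, and 0.833% ± 0.0326 in compound mutant ileum and 0.911% ± 0.0458 in Apc+/- ileum (SD, n = 3 unless stated). Library by library the share was 0.813%, 0.836% and 0.828% in compound mutant cecum, 1.25%, 1.09% and 1.08% in set 1 and 0.933%, 0.785% and 1.17% in set 2 of Cdx2-/- cecum, and 1.43%, 1.28% and 1.29% in Cdx2+/- cecum, against 1.59%, 1.46% and 1.41% in WT cecum. All 9 Cdx2-deleted cecum libraries lay below all 3 WT cecum libraries, while Cdx2+/- and WT cecum overlapped. By this share the 3 compound mutant cecum libraries sat within the range spanned by both ileum groups. As summed TMM-scaled CPM, compound mutant cecum replicate 2, at 8484, was above the highest ileum library, at 8084.

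**Figure D1:**
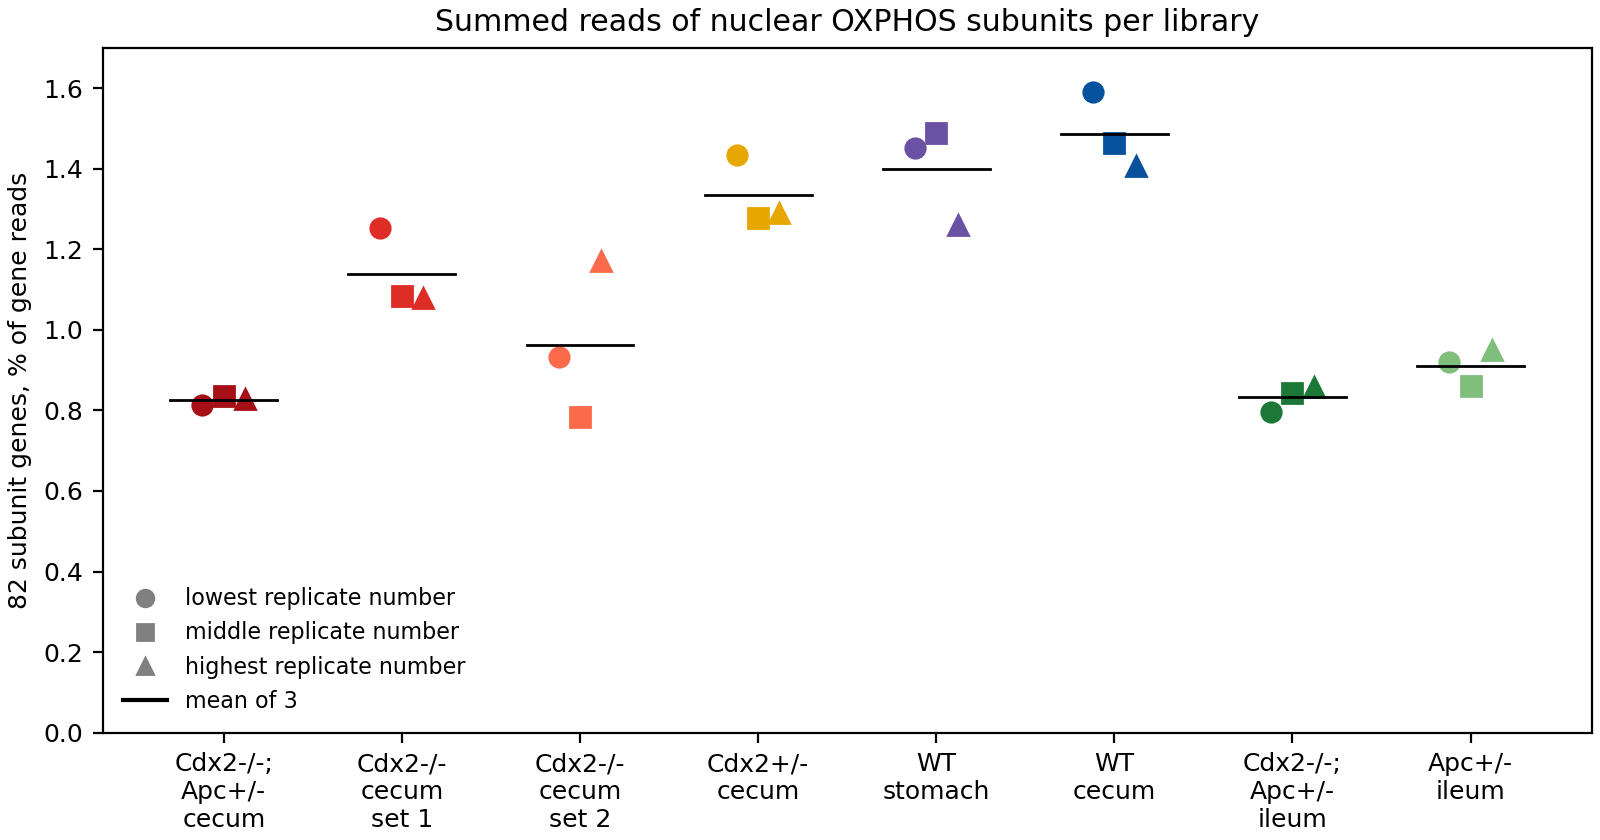
Summed reads of the 82 nuclear oxidative phosphorylation genes as a percent of all gene reads (y axis, linear), with 1 point per library and a bar at the mean of 3 libraries for each of the 8 groups (x axis). Compound mutant cecum lies at 0.813% to 0.836%, below every WT cecum library (1.41% to 1.59%), and both ileum groups lie below 1%.

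Single complexes showed the same order between cecum genotypes. Complex V, the ATP synthase, took the largest share of reads, with means of 0.344% in compound mutant, 0.435% in Cdx2-/-, 0.573% in Cdx2+/- and 0.604% in WT cecum. Complex I averaged 0.205% in compound mutant, 0.267% in Cdx2-/-, 0.318% in Cdx2+/- and 0.339% in WT cecum. Complex IV averaged 0.109% in compound mutant, 0.142% in Cdx2-/-, 0.187% in Cdx2+/- and 0.239% in WT cecum. Per length, in CPM per kilobase of exon (RPKM, mean of the 8 groups), the most abundant members were Cox6a1 at 433, Cox6b1 at 412, Atp5a1 at 403, Cox8a at 349 and Atp5b at 342 RPKM. The lowest tested members were Ndufb2 at 1.21 and Cox8b at 0.425 RPKM. Among the 79 tested genes the highest group mean was in WT cecum for 44 and in WT stomach for 28, and the lowest in compound mutant ileum for 46, compound mutant cecum for 15 and Apc+/- ileum for 14. Reads that map to more than 1 place were 17.3% to 30.0% of the alignments per library and were not assigned to genes. Members with processed pseudogene copies found by symbol, here Uqcrh, Cox6c, Ndufs6, Ndufb4, Ndufa11, Atp5k, Atp5l and Atp5c1, therefore have uncertain levels. Copies under other names were not sought, so the same may hold for other members.

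In the Cdx2-/- cecum the subunits of all 5 complexes were lower than in the WT cecum. Of the 79 tested genes 71 fell and 0 rose (edgeR's quasi-likelihood test, Benjamini-Hochberg adjusted p under 0.05), where 26.2% of the 20502 genes tested fell and 26.9% rose. The members' median log2 fold change was -0.91, against 0.04 over all genes. The 71 comprised 34 of 37 complex I, all 4 complex II, all 8 complex III, 10 of 13 tested complex IV and 15 of 17 complex V genes, with medians of -0.84, -0.86, -1.02, -1.09 and -0.86. For 47 members every one of the 6 Cdx2-/- libraries was below every WT library, which held for 19.0% of all genes tested. These are bulk tissues, in which fewer cells of a type and less RNA per cell cannot be told apart. The summed colonocyte and gastric surface markers, given above, moved with the result without overlap between the groups. So did 9 enterocyte markers, at 118 to 619.5 CPM in Cdx2-/- and 959.8 to 2281 CPM in WT cecum, 5 fibroblast markers, at 1311 to 2557 CPM in Cdx2-/- and 417 to 1091 CPM in WT cecum, and 6 proliferation markers, at 617 to 806 CPM in Cdx2-/- and 197 to 418 CPM in WT cecum. The 6 squamous epithelial markers, at 13.0 to 29.4 CPM in Cdx2-/- and 0.163 to 3.07 CPM in WT cecum, and 5 fat markers, at 25.3 to 153 CPM in Cdx2-/- and 9.79 to 11.8 CPM in WT cecum, did not overlap either. The part of these markers in the result was not tested. With library totals in place of TMM factors the median of all genes was 0.46 and that of the members -0.46, a difference of -0.92 between them, against -0.95 with TMM. The count of members that fell was 61 to 72 when each library was left out in turn.

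Core subunits of complex I fell in Cdx2-/- cecum. Ndufs1 (ENSMUSG00000025968, minus strand of chromosome 1, 63143596 to 63176833, GRCm38), the largest iron-sulfur subunit, had 83.0, 88.2 and 89.9 CPM in set 1 and 99.1, 84.3 and 115 CPM in set 2, against 185, 200.4 and 187 CPM in WT cecum. The lowest WT library was above all 6 Cdx2-/- libraries (log2 fold change -1.04 ± 0.10, edgeR adjusted p = 5.6e-08, SE, 6 against 3 libraries). Ndufv1, the flavoprotein that binds NADH, had 128, 132 and 123 CPM in set 1 and 108, 95.2 and 143 CPM in set 2, against 277, 254 and 203 CPM in WT cecum, again without overlap (log2 fold change -1.01 ± 0.13, edgeR adjusted p = 3.2e-06). Ndufa9, an accessory subunit near the ubiquinone site, fell too (log2 fold change -0.54 ± 0.11, edgeR adjusted p = 0.00043). Ndufa4 had a fitted change above 0, at 173, 126 and 128 CPM in set 1 and 80.0, 69.9 and 121 CPM in set 2, against 87.5, 92.4 and 68.1 CPM in WT cecum. Its difference did not pass the test (log2 fold change 0.45 ± 0.20, edgeR adjusted p = 0.063), and its groups overlapped through set 2. Its paralog Ndufa4l2, a low gene known from hypoxic cells, did not pass either, at 1.62, 2.56 and 2.64 CPM in set 1 and 1.11, 1.35 and 1.00 CPM in set 2, against 0.795, 0.209 and 1.14 CPM in WT cecum (edgeR adjusted p = 0.055).

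In complex II, which is also the succinate dehydrogenase of the tricarboxylic acid cycle, the flavoprotein Sdha had 352, 382 and 380.1 CPM in set 1 and 349, 328 and 399 CPM in set 2, against 618, 660.4 and 561 CPM in WT cecum (log2 fold change -0.75 ± 0.09, edgeR adjusted p = 2.3e-06). The iron-sulfur subunit Sdhb (plus strand of chromosome 4, 140961203 to 140979193) had 129, 119.8 and 115 CPM in set 1 and 89.9, 86.3 and 121 CPM in set 2, against 316, 309 and 239 CPM in WT cecum (log2 fold change -1.40 ± 0.12, edgeR adjusted p = 4.0e-08). Neither gene's groups overlapped. In complex III the Rieske iron-sulfur protein Uqcrfs1 (minus strand of chromosome 13, 30540308 to 30545362) had 176, 136 and 140.5 CPM in set 1 and 114, 92.6 and 157 CPM in set 2, against 512, 543 and 309.7 CPM in WT cecum (log2 fold change -1.75 ± 0.17, edgeR adjusted p = 1.1e-07). The core subunit Uqcrc1 fell too (log2 fold change -0.98 ± 0.12, edgeR adjusted p = 2.5e-06). The small ubiquinone-binding subunit Uqcrq (minus strand of chromosome 11, 53427922 to 53430831) had the third largest fall of any member at 10 CPM or more, with 99.7, 70.2 and 71.7 CPM in set 1 and 33.4, 25.3 and 43.2 CPM in set 2, against 241, 193 and 109 CPM in WT cecum (log2 fold change -1.79 ± 0.33, edgeR adjusted p = 0.00017). WT replicate 3 was the low library of its group for Uqcrq and Uqcrfs1, yet above all 6 Cdx2-/- libraries.

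Complex IV held the largest falls and the widest spread between members. Cox7a1 (ENSMUSG00000074218, plus strand of chromosome 7, 30184144 to 30186078), the heart and muscle form of subunit VIIa, had 8.11, 3.12 and 3.21 CPM in set 1 and 3.30, 2.41 and 5.11 CPM in set 2, against 136, 119 and 41.9 CPM in WT cecum. No library overlapped, and the fall was the largest of any member (log2 fold change -4.56 ± 0.52, edgeR adjusted p = 6.6e-07). Its broadly expressed counterpart Cox7a2 had 143, 110.3 and 109 CPM in set 1 and 111, 93.9 and 163 CPM in set 2, against 216, 210.1 and 137 CPM in WT cecum, overlapping through set 1 replicate 1 and set 2 replicate 6 (log2 fold change -0.62 ± 0.17, edgeR adjusted p = 0.0053). Per length, Cox7a1 averaged 8.99 ± 5.33 RPKM in set 1, 6.75 ± 2.57 RPKM in set 2 and 185 ± 93.5 RPKM in WT cecum (SD, n = 3). Cox7a2 averaged 128 ± 20.6 RPKM in set 1, 129.8 ± 38.3 RPKM in set 2 and 199 ± 46.7 RPKM in WT cecum. It was the more abundant form in both Cdx2-/- sets, while in WT cecum the means lay within 1 SD of each other. Smooth muscle markers, 8 of 8 detected, summed to 1583, 1561 and 1437 CPM in set 1 and 2008, 1409 and 3082 CPM in set 2, against 2034, 1167 and 3983 CPM in WT cecum. In WT cecum replicate 3 had the most smooth muscle signal and the least Cox7a1, and was the lowest library in CPM for 74 of the 79 tested members. The 7 skeletal muscle markers summed to 2.13 to 16.5 CPM over all 24 libraries. The part of muscle in the Cox7a1 values was not tested. Cox7a2l, the supercomplex factor, did not pass (log2 fold change -0.14 ± 0.14, edgeR adjusted p = 0.44).

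Cox6a1 (ENSMUSG00000041697, minus strand of chromosome 5, 115345642 to 115348981), the broadly expressed form of subunit VIa, had 342, 279 and 256 CPM in set 1 and 116, 94.2 and 165 CPM in set 2, against 979, 836 and 447 CPM in WT cecum. Set 2 was lower than set 1 and both were below WT (log2 fold change -1.98 ± 0.24, edgeR adjusted p = 1.4e-06). Its muscle form Cox6a2 was barely detected, with 8, 4 and 5 reads in set 1 and 3, 4 and 1 in set 2, against 0, 0 and 5 in WT cecum. Cox5a, a subunit on the matrix side, had 69.7, 60.1 and 63.3 CPM in set 1 and 30.0, 23.1 and 41.0 CPM in set 2, against 171, 150.0 and 93.0 CPM in WT cecum (log2 fold change -1.62 ± 0.17, edgeR adjusted p = 3.7e-07). Cox8a (log2 fold change -1.39 ± 0.20, edgeR adjusted p = 9.4e-06), Cox7b (-1.09, edgeR adjusted p = 0.00029), Cox6b1 (edgeR adjusted p = 0.00056) and Cox6c (-1.04, edgeR adjusted p = 6.6e-05) fell as well. The testis form Cox6b2 did not pass (edgeR adjusted p = 0.21). Cox8b had 31, 18 and 7 reads in set 1 and 2, 1 and 6 in set 2, against 19, 14 and 21 in WT cecum, and did not pass (edgeR adjusted p = 0.063).

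In complex V the catalytic beta subunit Atp5b (ENSMUSG00000025393, plus strand of chromosome 10, 128083273 to 128090391) had 1065, 1199 and 1136 CPM in set 1 and 938, 892 and 1400.2 CPM in set 2, against 2443, 2299 and 2039 CPM in WT cecum, with no overlap (log2 fold change -1.03 ± 0.13, edgeR adjusted p = 2.5e-06). The 3 genes for the same mature c-ring protein, which differ in their import peptides, gave different calls. Atp5g1 had 97.0, 85.3 and 81.8 CPM in set 1 and 48.8, 42.7 and 92.8 CPM in set 2, against 183, 144 and 119 CPM in WT cecum (log2 fold change -1.02 ± 0.20, edgeR adjusted p = 0.00033). Atp5g3 had 468, 350.2 and 344 CPM in set 1 and 210.0, 160.1 and 301 CPM in set 2, against 793, 702 and 477 CPM in WT cecum (log2 fold change -1.16 ± 0.20, edgeR adjusted p = 7.6e-05). Atp5g2 had 38.2, 48.2 and 45.2 CPM in set 1 and 31.0, 28.4 and 41.6 CPM in set 2, against 43.9, 41.0 and 33.0 CPM in WT cecum, with both sets overlapping WT (log2 fold change -0.03 ± 0.16, edgeR adjusted p = 0.88). With library totals in place of TMM factors Atp5g2 was at a log2 fold change of 0.41 and Cox7a2l at 0.32, each below the all-gene median of that scaling. The coupling factor Atp5s and the low gene Ndufb2, named here after their values were seen, did not pass (0.04 and 0.21).

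Members were high or low together between libraries of 1 group. In set 2 of Cdx2-/- cecum, replicate 6 was the highest library for 74 and replicate 5 the lowest for 75 of the 79 tested members. In set 1 replicate 1 was the highest for 68. In WT cecum replicate 3 was the lowest for 74, and in WT stomach replicate 3 was the lowest for 76. Cdx2+/- cecum replicate 1 was the highest of its group for 75 members. These ranks are of TMM-scaled CPM, and the factor of a library moves all its members together. In WT cecum the factors were 0.730, 0.714 and 0.942 for replicates 1 to 3. Without the factors, the share of all members was still lowest in replicate 3, but that of complex V was 0.627%, 0.579% and 0.605%. The part of the factors in the ranks was not tested.

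**Figure D2:**
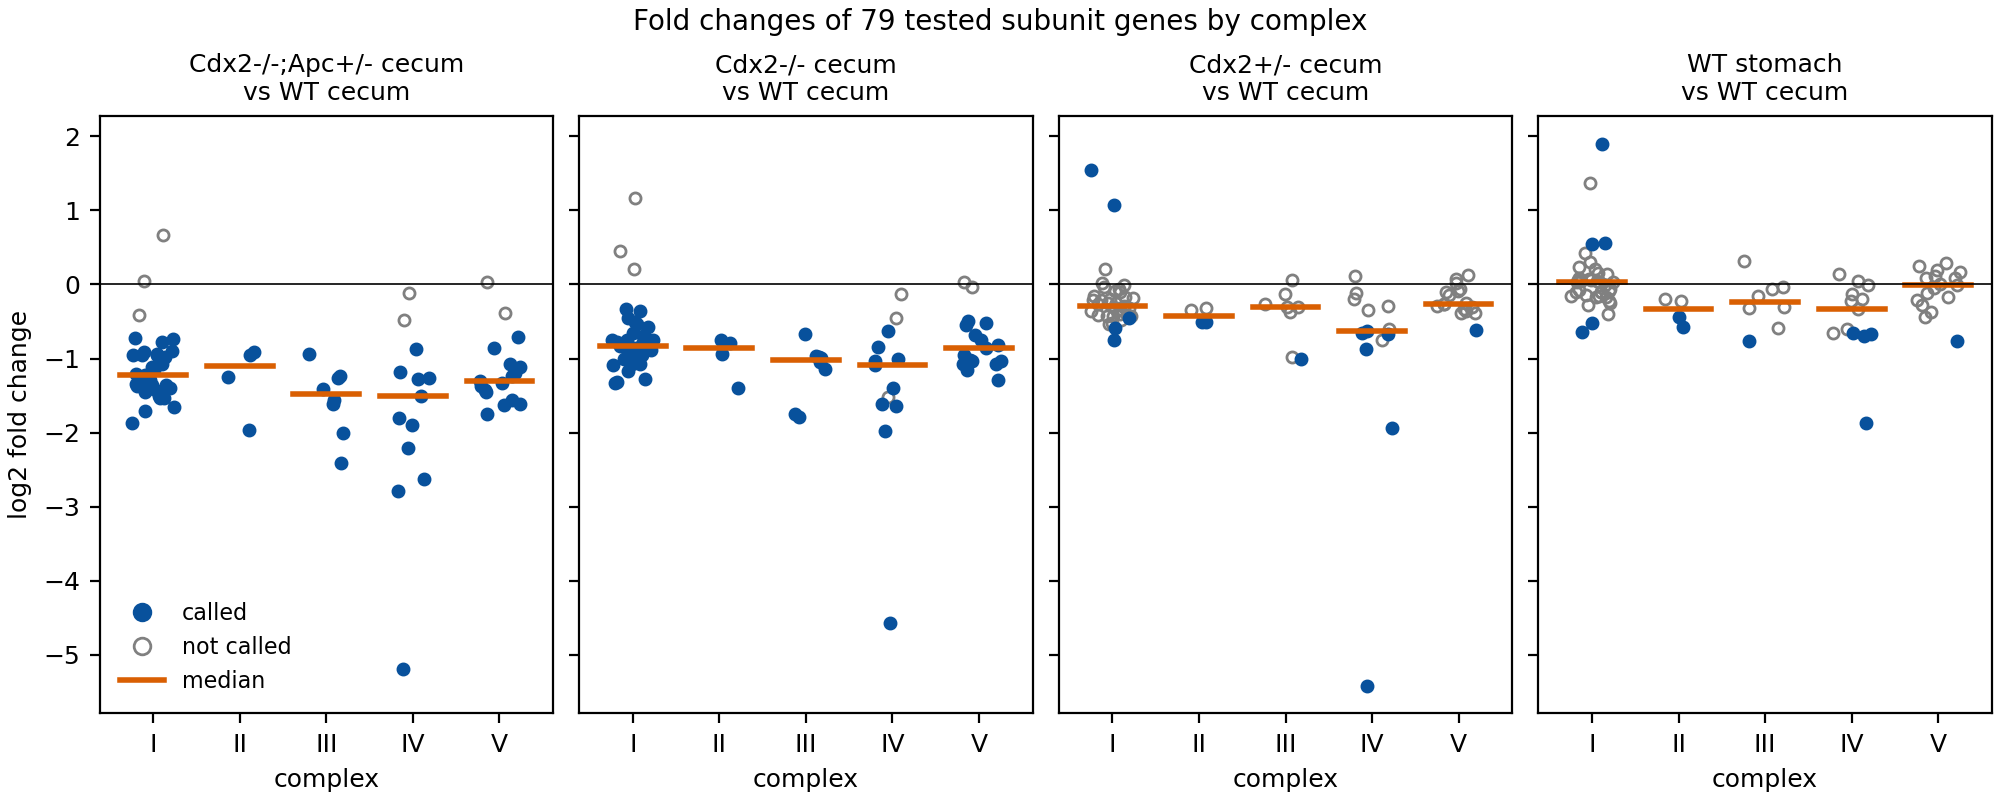
Log2 fold change (y axis) of each of the 79 tested genes, by complex (x axis), in 4 comparisons: compound mutant, Cdx2-/- and Cdx2+/- cecum and WT stomach, each against WT cecum. Filled points passed the test, open points did not, and the orange line is the median of each complex; the lowest point in the Cdx2+/- panel, at -5.42, is Cox8b with 0, 0 and 1 reads, and its fitted value is no measure of size. In the compound mutant and Cdx2-/- panels nearly all points lie below 0.

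Promoters of the members, from 250 bases before to 50 after the annotated start, were searched on both strands for the letters of 5 factors tied to mitochondrial or intestinal genes. RefSeq (GRCm38.p6) held windows for 66 of the 82 members, 71 windows in all. The NRF1 letters, GCGCA and GCGC with any base between them, recognised by nuclear respiratory factor 1, were in 18 windows (25.4%), against 4.60% of all 32851 promoter windows. The YY1 letters, AA, any base and then ATGGCGG, were in 6 windows (8.45%, against 1.36%), and the ETS letters CCGGAAGT, read by the GABP factor, in 5 (7.04%, against 3.89%). The CDX letters TTTATNG were in 11 windows (15.5%, against 10.9%), and the HNF4 letters CAAAGTCCA in 0 windows (0.475% of all). A match describes the letters in the window and is not a measured binding site. Of the 59 matched members that fell in Cdx2-/- cecum, 16 held the NRF1 letters, and of all 66 matched members 17 did. Printed here, chosen after the values were seen, are the member with the largest fall, which held none of the 5, then 2 members with the NRF1 letters and 1 with the YY1 letters on the reverse strand, with matches in capitals. The windows are chr7:30183921-30184220 (plus strand) for Cox7a1, chr5:115348909-115349208 (minus strand) for Cox6a1, chr4:123718137-123718436 (minus strand) for Ndufs5, a complex I accessory subunit, and chr10:128083057-128083356 (plus strand) for Atp5b, each written 5′ to 3′ along the gene.
Cox7a1: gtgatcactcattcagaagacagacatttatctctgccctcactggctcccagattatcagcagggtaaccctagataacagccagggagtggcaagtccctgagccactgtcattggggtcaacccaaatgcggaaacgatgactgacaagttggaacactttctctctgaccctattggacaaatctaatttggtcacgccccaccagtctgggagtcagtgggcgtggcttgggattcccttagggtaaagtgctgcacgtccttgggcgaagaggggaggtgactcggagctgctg
Cox6a1: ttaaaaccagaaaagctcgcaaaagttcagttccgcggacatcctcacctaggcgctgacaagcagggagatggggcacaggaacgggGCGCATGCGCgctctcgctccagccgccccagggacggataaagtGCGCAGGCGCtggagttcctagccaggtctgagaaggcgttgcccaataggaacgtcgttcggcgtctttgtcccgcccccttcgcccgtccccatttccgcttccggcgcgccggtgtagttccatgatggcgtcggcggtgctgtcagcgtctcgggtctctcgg
Ndufs5: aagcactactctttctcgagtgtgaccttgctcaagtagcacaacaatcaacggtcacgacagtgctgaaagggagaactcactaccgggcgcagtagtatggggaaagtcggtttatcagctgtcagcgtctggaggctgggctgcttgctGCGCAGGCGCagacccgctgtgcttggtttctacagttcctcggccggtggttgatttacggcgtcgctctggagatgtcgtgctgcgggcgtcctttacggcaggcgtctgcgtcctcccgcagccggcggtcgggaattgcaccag
Atp5b: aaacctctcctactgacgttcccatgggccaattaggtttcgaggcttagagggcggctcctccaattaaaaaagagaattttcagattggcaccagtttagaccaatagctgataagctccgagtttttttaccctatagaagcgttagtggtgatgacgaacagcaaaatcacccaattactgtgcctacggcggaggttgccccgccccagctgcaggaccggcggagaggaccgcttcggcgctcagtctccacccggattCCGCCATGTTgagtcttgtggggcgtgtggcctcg

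The printed genes, chosen partly by the size of their fall, changed as follows, and whether the letters bear on this was not tested. Cox6a1, with 2 NRF1 matches, and Ndufs5, with 1, fell in Cdx2-/- cecum by 1.98 and 1.16 on the log2 scale (edgeR adjusted p = 1.4e-06 and 0.00011), and Atp5b, with the YY1 letters, fell by 1.03, while Cox7a1, with no match, fell by 4.56.

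Lists of genes that feed or build the chain leaned lower in Cdx2-/- cecum too, where 26.2% of all genes tested fell and 26.9% rose. All 14 tricarboxylic acid cycle genes fell (median log2 fold change -0.91). Of 20 fatty acid oxidation and ketogenesis genes 19 fell (median -1.39). Slc16a1, which carries butyrate and lactate across the cell membrane, averaged 92.1 ± 21.4 CPM in Cdx2-/- cecum and 1882 ± 651 CPM in WT cecum (log2 fold change -4.36 ± 0.20, edgeR adjusted p = 3.4e-11; SD, n = 6 and 3). Assembly factors were called with 27 of 44 lower and 2 higher (median -0.46), glycolysis genes with 10 of 16 lower and 0 higher (median -0.72), and pyruvate dehydrogenase and its regulators with 7 of 10 lower and 2 higher (median -0.71). Of 73 mitochondrial ribosomal protein genes 24 fell and 5 rose (median -0.24), so the share that fell was near that of all genes. Cytosolic ribosomal proteins, a list added after the data were seen, went the other way, with 53 of 72 higher and 0 lower (median 0.54). Protein-coding genes with under 1500 exon bases, as 41 of the 82 members have, were 1390, with 358 lower and 393 higher (median 0.05).

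Of 6 subunits and carriers missed by the name rule, cytochrome c among them, 5 fell and 0 rose (median -1.17). Among all genes tested 26.2% fell and 26.9% rose. Cox4i1, the broadly expressed subunit IV, averaged 298 ± 87.5 CPM in Cdx2-/- cecum and 871 ± 274 CPM in WT cecum (log2 fold change -1.58 ± 0.20, edgeR adjusted p = 1.9e-06). Cytochrome c1, Cyc1, averaged 161 ± 40.5 CPM in Cdx2-/- cecum and 425 ± 93.4 CPM in WT cecum (log2 fold change -1.41 ± 0.17, edgeR adjusted p = 1.2e-06). Ndufab1 fell as well (log2 fold change -0.92 ± 0.15, edgeR adjusted p = 3.2e-05), and the hypoxia-linked form Cox4i2 did not pass (log2 fold change 0.41 ± 0.27, edgeR adjusted p = 0.22). Of 14 regulators of mitochondrial biogenesis and energy genes 6 fell and 1 rose. Hnf4a, a nuclear receptor of intestinal epithelium, averaged 358 ± 47.5 CPM in Cdx2-/- cecum and 1843 ± 540.5 CPM in WT cecum (log2 fold change -2.36 ± 0.27, edgeR adjusted p = 9.3e-07). The coactivator Ppargc1a (log2 fold change -1.08 ± 0.16, edgeR adjusted p = 1.5e-05) and the receptor Esrra (log2 fold change -1.64 ± 0.31, edgeR adjusted p = 0.00018) fell, and the related coactivator Pprc1 rose (log2 fold change 1.61 ± 0.20, edgeR adjusted p = 1.6e-06).

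The compound mutant cecum had the lowest mean summed share of the 4 cecum genotypes. Against WT cecum 72 of 79 members fell and 0 rose, where 26.1% of all genes fell and 26.6% rose, with a median log2 fold change of -1.29 against 0.07 over all genes. For 71 members every compound mutant library was below every WT library, which held for 27.0% of all genes. By complex 34, 4, 8, 11 and 15 genes of complexes I to V fell, with medians of -1.22, -1.10, -1.48, -1.50 and -1.31. Sdhb had 69.1, 75.3 and 77.8 CPM in compound mutant cecum, against 316, 309 and 239 CPM in WT cecum (log2 fold change -1.96 ± 0.15, edgeR adjusted p = 2.3e-08). Cox6a1 had 93.4, 120.4 and 115 CPM, against 979, 836 and 447 CPM in WT cecum (log2 fold change -2.78 ± 0.31, edgeR adjusted p = 7.6e-07). Uqcrq had 25.6, 35.7 and 41.3 CPM, against 241, 193 and 109 CPM in WT cecum (log2 fold change -2.40 ± 0.42, edgeR adjusted p = 0.00011). Cox7a1 was again the largest fall, at 2.47, 2.84 and 2.80 CPM, against 136, 119 and 41.9 CPM in WT cecum (log2 fold change -5.19 ± 0.71, edgeR adjusted p = 8.1e-06). The count was 71 to 73 with each library left out in turn.

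Other members of the compound mutant cecum followed. Ndufs1 had 94.1, 89.9 and 81.5 CPM in compound mutant cecum, against 185, 200.4 and 187 CPM in WT cecum (log2 fold change -1.11 ± 0.11, edgeR adjusted p = 4.0e-07). Atp5b had 878, 967 and 844 CPM, against 2443, 2299 and 2039 CPM in WT cecum (log2 fold change -1.33 ± 0.16, edgeR adjusted p = 1.8e-06). Both were lower in all 3 mutant libraries. Ndufa4 (log2 fold change -0.42 ± 0.23, edgeR adjusted p = 0.13) and Atp5g2 (log2 fold change -0.38 ± 0.19, edgeR adjusted p = 0.090) did not pass. Of 73 mitochondrial ribosomal protein genes 53 fell and 1 rose (median -0.73), and of 44 assembly factors 34 fell and 0 rose (median -0.81). Among all genes tested 26.1% fell and 26.6% rose. Of the tricarboxylic acid cycle genes 13 of 14, and 19 of 20 fatty acid oxidation and ketogenesis genes, fell, with medians of -1.16 and -1.54. Hnf4a (log2 fold change -2.87 ± 0.35, edgeR adjusted p = 2.7e-06) and Esrra (log2 fold change -2.26 ± 0.38, edgeR adjusted p = 8.1e-05) fell, whereas Ppargc1a did not pass (log2 fold change -0.27 ± 0.19, edgeR adjusted p = 0.25). Colonocyte markers, at 204 to 1549 CPM in compound mutant cecum and 21989 to 40089 CPM in WT cecum, moved with the result. So did 9 leukocyte markers, at 862 to 1289.8 CPM in compound mutant and 237 to 662 CPM in WT cecum, 5 fibroblast markers, at 2096 to 2506 CPM in compound mutant and 417 to 1091 CPM in WT cecum, and 6 proliferation markers, at 485 to 559 CPM in compound mutant and 197 to 418 CPM in WT cecum. Gastric surface markers, given above, 9 enterocyte markers, at 159 to 283 CPM in compound mutant and 959.8 to 2281 CPM in WT cecum, 6 squamous epithelial markers, at 28.5 to 46.0 CPM in compound mutant and 0.163 to 3.07 CPM in WT cecum, 5 fat markers, at 49.1 to 109 CPM in compound mutant and 9.79 to 11.8 CPM in WT cecum, and 5 pericyte and vessel markers, at 426 to 509 CPM in compound mutant and 235 to 417 CPM in WT cecum, did not overlap either. The part of all these markers in it was not tested.

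**Figure D3:**
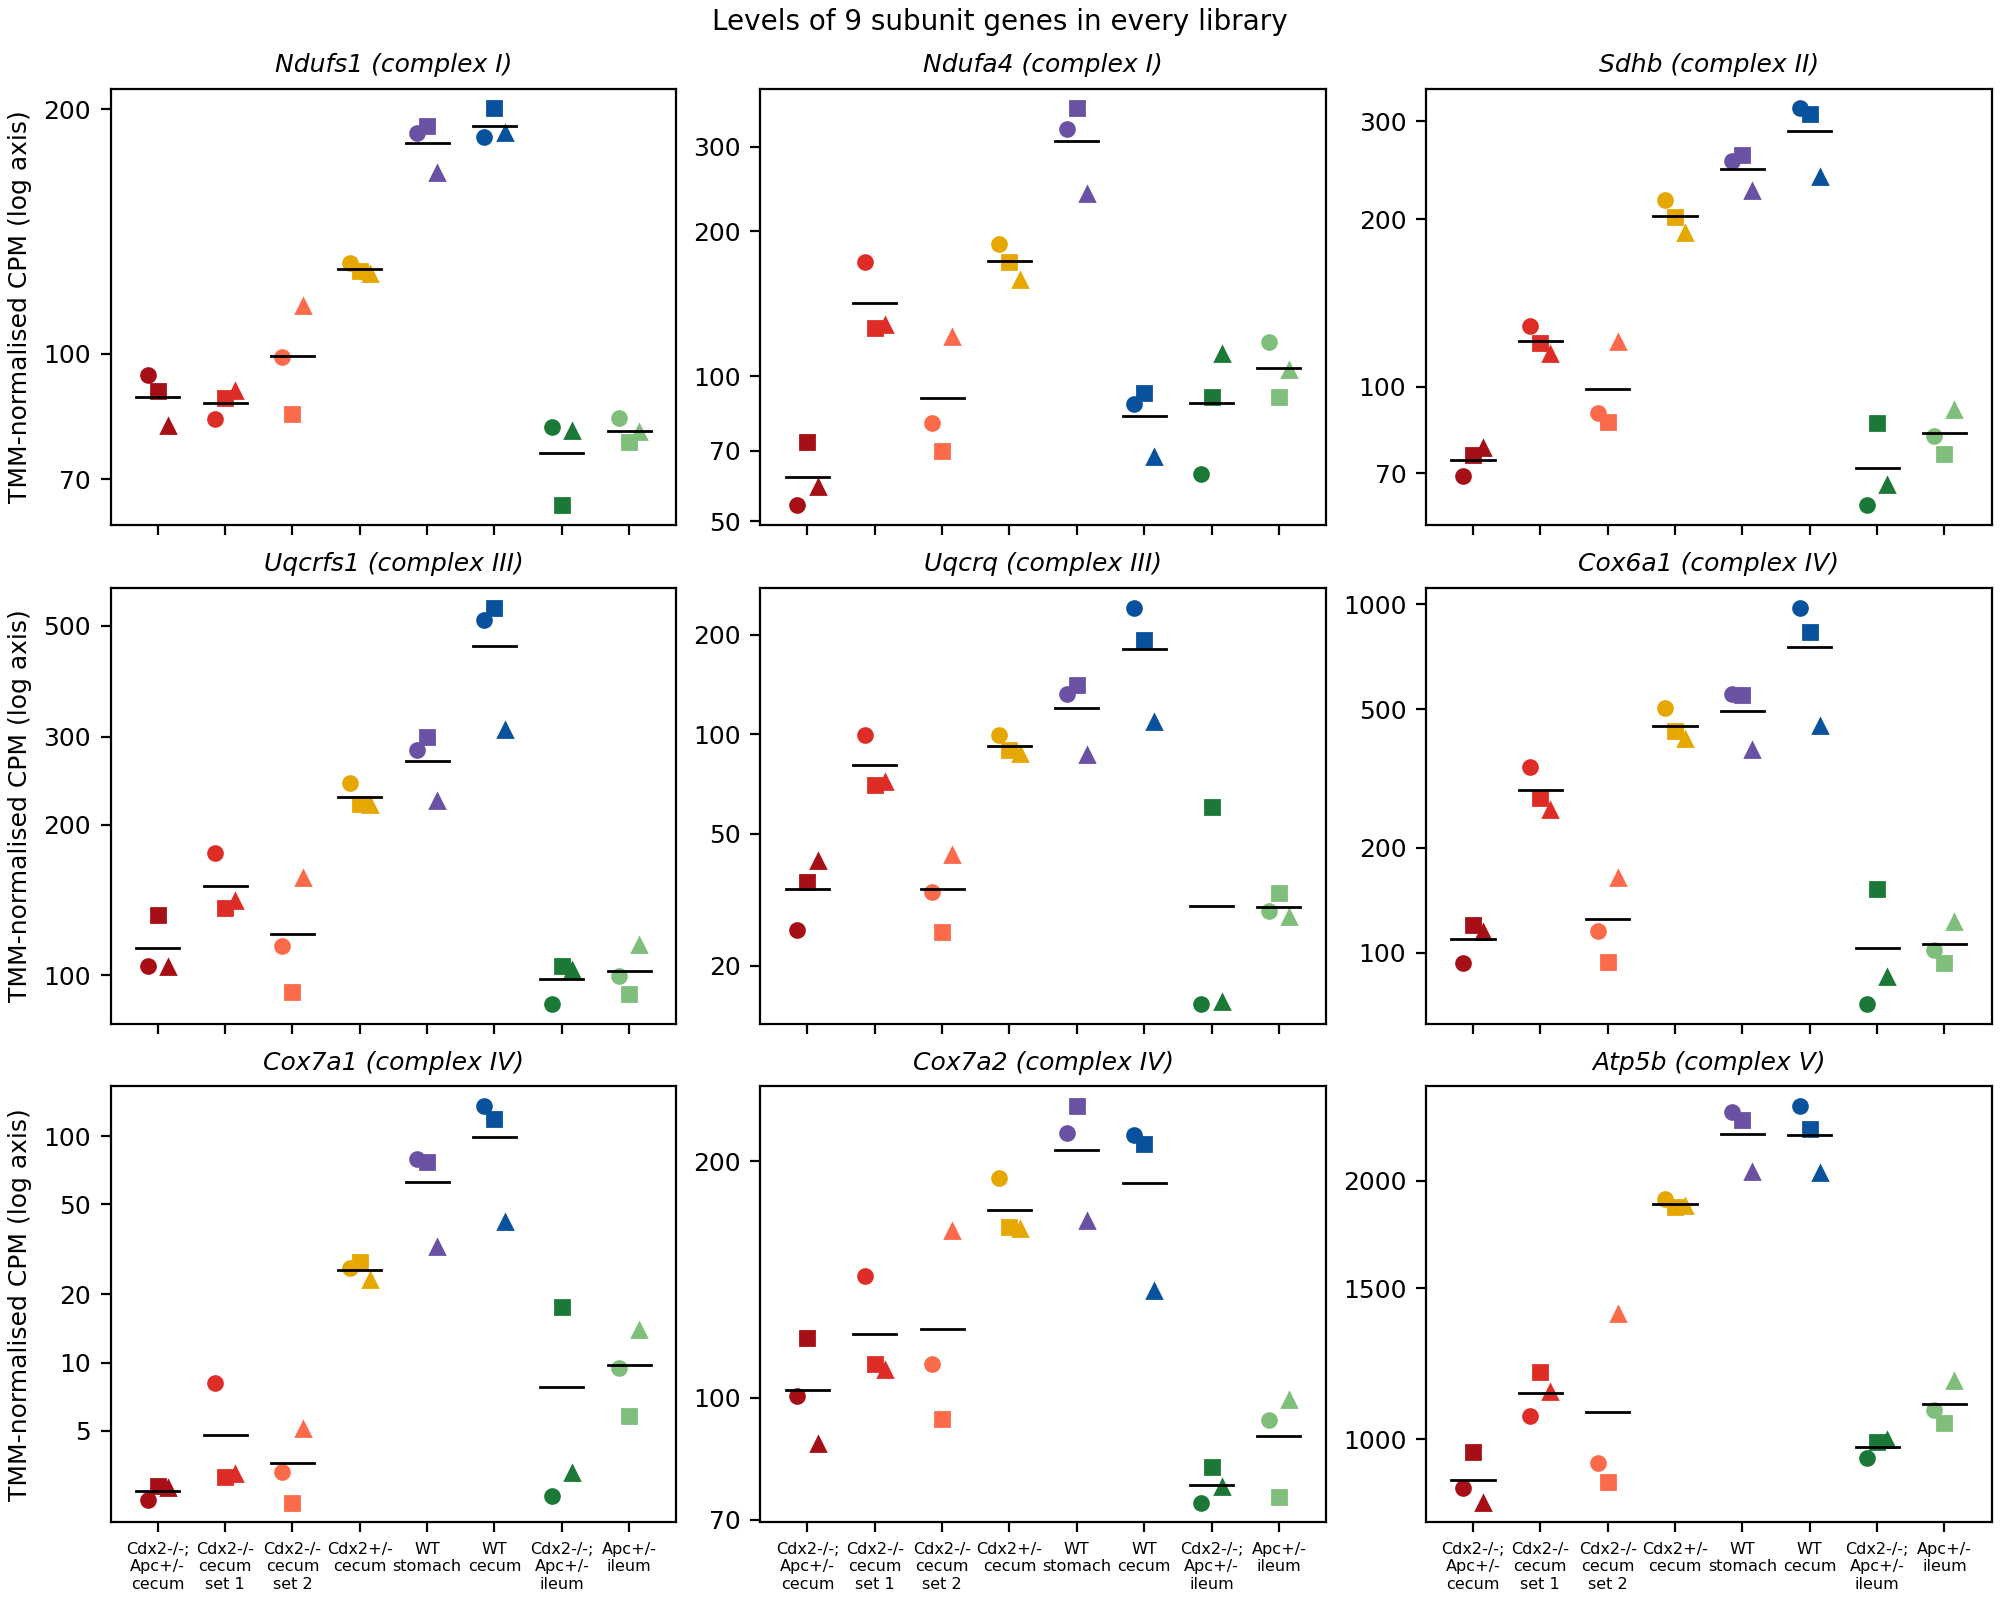
CPM (y axis, log scale) of 9 members in each library of the 8 groups (x axis), with a marker shape for each replicate of a group and a bar at the mean of 3 libraries. Cox7a1 spans 2.41 to 136 CPM over the cecum groups, and Ndufa4 is highest in WT stomach (239 to 360 CPM).

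Set against Cdx2-/- cecum directly, compound mutant cecum had 7 members lower and 0 higher, where 4.50% of all genes fell and 3.93% rose. The median log2 fold change was -0.38, against 0.02 over all genes, and 39 members had an unadjusted p under 0.05. Protein-coding genes with under 1500 exon bases, as 41 of the 82 members have, leaned lower too. Of these 1390 genes 132 fell and 45 rose (median -0.24), and the part of gene length in the result was not tested. For 2 members the libraries did not overlap, which held for 4.40% of all genes in this direction. The 7 were 5 of complex I (Ndufa4, Ndufa9, Ndufa12, Ndufc1 and Ndufs8), Sdhb and Atp5e. Ndufa4 had 54.0, 72.9 and 58.7 CPM in compound mutant cecum, against 173, 126 and 128 CPM in set 1 and 80.0, 69.9 and 121 CPM in set 2 of Cdx2-/- cecum (log2 fold change -0.87 ± 0.20, edgeR adjusted p = 0.015). Sdhb had 69.1, 75.3 and 77.8 CPM in compound mutant cecum, against 129, 119.8 and 115 CPM in set 1 and 89.9, 86.3 and 121 CPM in set 2 (log2 fold change -0.56 ± 0.13, edgeR adjusted p = 0.016). Ppargc1a rose (log2 fold change 0.81 ± 0.16, edgeR adjusted p = 0.0073), and 33 of 73 mitochondrial ribosomal protein genes fell (median -0.45). Of the marker lists, 6 proliferation markers, at 485 to 559 CPM in compound mutant and 617 to 806 CPM in Cdx2-/- cecum, did not overlap, and their part in the result was not tested. The count of 7 members depended on which Cdx2-/- libraries were used: 35 members fell against set 1 alone and 0 against set 2 alone. It was 4 without set 1 replicate 1, 17 without set 2 replicate 5, 3 without set 2 replicate 6 and 2 without each compound mutant library in turn.

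In Cdx2+/- cecum, whose Cdx2 level was no higher than that of Cdx2-/- cecum, few members changed. Against WT cecum 13 fell and 2 rose, where 17.3% of all genes fell and 17.1% rose, so the counts were near or under the background. Their median was -0.30 on the log2 scale, against -0.05 over all genes, and for 20 members all Cdx2+/- libraries were below all WT libraries, against 23.9% of all genes. With the replicate number as a block, which these 2 groups' libraries allow, 13 fell and 1 rose. Complex IV had 6 of the 13, namely Cox5a, Cox5b, Cox6c, Cox7a1, Cox8a, Cox8b, the last of them with 0, 0 and 1 reads. Cox7a1 had 26.3, 27.7 and 23.1 CPM in Cdx2+/- cecum, against 136, 119 and 41.9 CPM in WT cecum (log2 fold change -1.94 ± 0.61, edgeR adjusted p = 0.018). Beside this, smooth muscle markers, 8 of 8 detected, summed to 124, 146 and 551 CPM in Cdx2+/- cecum, against 2034, 1167 and 3983 CPM in WT cecum, without overlap, and 7 enteric neuron and glia markers, at 3.15 to 5.27 CPM in Cdx2+/- and 13.3 to 41.4 CPM in WT cecum, did not overlap either. Uqcrfs1 had 243, 219.6 and 219 CPM, against 512, 543 and 309.7 CPM in WT cecum (log2 fold change -1.002 ± 0.21, edgeR adjusted p = 0.00096). Ndufs1 had 129, 126 and 125 CPM, against 185, 200.4 and 187 CPM in WT cecum (log2 fold change -0.59 ± 0.11, edgeR adjusted p = 0.00058), and Atp5b did not pass, at 1902, 1863 and 1867 CPM, against 2443, 2299 and 2039 CPM in WT cecum (log2 fold change -0.27 ± 0.16, edgeR adjusted p = 0.20). Colonocyte and gastric surface markers, given above, moved between these groups too. So did, without overlap, 9 enterocyte markers, at 2667 to 5773 CPM in Cdx2+/- and 959.8 to 2281 CPM in WT cecum, 6 proliferation markers, at 478 to 536 CPM in Cdx2+/- and 197 to 418 CPM in WT cecum, and 4 chief cell markers, at 446 to 942 CPM in Cdx2+/- and 1.95 to 374 CPM in WT cecum. The 6 squamous epithelial markers, at 45.4 to 551 CPM in Cdx2+/- and 0.163 to 3.07 CPM in WT cecum, 5 fat markers, at 21.5 to 32.3 CPM in Cdx2+/- and 9.79 to 11.8 CPM in WT cecum, and 7 skeletal muscle markers, at 2.13 to 3.52 CPM in Cdx2+/- and 4.56 to 13.0 CPM in WT cecum, did not overlap. The part of the markers in the result, muscle and neuron lists included, was not tested. The 13 became 7 without WT replicate 1, 6 without WT replicate 2, 29 without WT replicate 3 and 7 without Cdx2+/- replicate 3.

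The members that rose in Cdx2+/- cecum were Ndufa4 and Ndufa4l2. Ndufa4 had 188, 172 and 159 CPM in Cdx2+/- cecum, against 87.5, 92.4 and 68.1 CPM in WT cecum, with no overlap (log2 fold change 1.07 ± 0.23, edgeR adjusted p = 0.0014). Ndufa4l2 had 3.86, 1.25 and 1.21 CPM in Cdx2+/- cecum, against 0.795, 0.209 and 1.14 CPM in WT cecum (log2 fold change 1.54 ± 0.55, edgeR adjusted p = 0.037), with no overlap, though the nearest libraries were close. Of 20 fatty acid oxidation and ketogenesis genes 15 fell and 0 rose (median -0.82), where 17.3% of all genes fell and 17.1% rose. Of 14 tricarboxylic acid cycle genes 6 fell (median -0.24). Hnf4a did not pass (log2 fold change -0.81 ± 0.33, edgeR adjusted p = 0.066).

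The comparison of Cdx2-/- with Cdx2+/- cecum separated the members again, with 62 lower and 3 higher, where 20.6% of all genes fell and 19.7% rose. The median log2 fold change was -0.61, against 0.05 over all genes, and 30, 4, 7, 7 and 14 genes of complexes I to V fell. For 51 members all Cdx2-/- libraries were below all Cdx2+/- libraries, against 18.4% of all genes. Atp5b had 1065, 1199 and 1136 CPM in set 1 and 938, 892 and 1400.2 CPM in set 2 of Cdx2-/- cecum, against 1902, 1863 and 1867 CPM in Cdx2+/- cecum (log2 fold change -0.76 ± 0.13, edgeR adjusted p = 0.00031). Cox6a1 (log2 fold change -1.23 ± 0.24, edgeR adjusted p = 0.00076) and Cox7a1 (log2 fold change -2.62 ± 0.50, edgeR adjusted p = 0.00063) fell too. The members that rose were Ndufb2, Atp5s and Cox8b, the last of these with 0, 0 and 1 reads in Cdx2+/- cecum. Of the followed lists, 11 of 14 tricarboxylic acid cycle genes (median -0.43), 15 of 20 fatty acid oxidation and ketogenesis genes (median -0.59), 15 of 16 glycolysis genes (median -0.99) and 24 of 73 mitochondrial ribosomal protein genes (median -0.27) fell. Citrate synthase Cs averaged 271 ± 41.9 CPM in Cdx2-/- cecum and 706 ± 48.0 CPM in Cdx2+/- cecum (log2 fold change -1.38 ± 0.17, edgeR adjusted p = 2.3e-05). Several marker lists moved with the result without overlap. These were 7 colonocyte markers, at 151 to 2529 CPM in Cdx2-/- and 4916 to 5998 CPM in Cdx2+/- cecum, 9 enterocyte markers, at 118 to 619.5 CPM in Cdx2-/- and 2667 to 5773 CPM in Cdx2+/- cecum, and 6 gastric surface markers, at 1933 to 22793 CPM in Cdx2-/- and 25229.9 to 27259.7 CPM in Cdx2+/- cecum. The muscle wall lists were higher in Cdx2-/- cecum, with 8 smooth muscle markers, at 1409 to 3082 CPM in Cdx2-/- and 124 to 551 CPM in Cdx2+/- cecum, and 7 enteric neuron and glia markers, at 14.5 to 36.1 CPM in Cdx2-/- and 3.15 to 5.27 CPM in Cdx2+/- cecum. So were 5 fibroblast markers, at 1311 to 2557 CPM in Cdx2-/- and 657 to 972 CPM in Cdx2+/- cecum, 5 pericyte and vessel markers, at 373 to 477 CPM in Cdx2-/- and 195 to 242 CPM in Cdx2+/- cecum, and 6 proliferation markers, at 617 to 806 CPM in Cdx2-/- and 478 to 536 CPM in Cdx2+/- cecum. The 4 chief cell markers, at 2.04 to 188 CPM in Cdx2-/- and 446 to 942 CPM in Cdx2+/- cecum, and 6 squamous epithelial markers, at 13.0 to 29.4 CPM in Cdx2-/- and 45.4 to 551 CPM in Cdx2+/- cecum, were lower. The part of these markers in the result was not tested. The 62 became 37 without Cdx2+/- replicate 1 and 15 with set 1 alone.

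The Cdx2-/- cecum libraries of set 2 and set 1 carry the same label and still differed. In set 2 17 members were lower than in set 1 and 0 higher, where 6.45% of all genes were lower and 4.03% higher. The median log2 fold change was -0.38, against 0.03 over all genes. For 35 members all set 2 libraries were below all set 1 libraries, against 18.4% of all genes. Cox5a had 30.0, 23.1 and 41.0 CPM in set 2, against 69.7, 60.1 and 63.3 CPM in set 1 (log2 fold change -1.04 ± 0.21, edgeR adjusted p = 0.0058). Cox6a1 had 116, 94.2 and 165 CPM in set 2, against 342, 279 and 256 CPM in set 1 (log2 fold change -1.23 ± 0.29, edgeR adjusted p = 0.013). Of the X-linked members, Ndufb11 was lower (log2 fold change -0.64 ± 0.15, edgeR adjusted p = 0.014), and Ndufa1 (log2 fold change -0.24 ± 0.20, edgeR adjusted p = 0.49) and Cox7b (log2 fold change -0.02 ± 0.26, edgeR adjusted p = 0.97) did not pass. Short transcripts and ribosomal proteins were lower in set 2 as well: 210 of 1390 short protein-coding genes (median -0.32), 23 of 72 cytosolic (median -0.40) and 27 of 73 mitochondrial ribosomal protein genes (median -0.44). Of the marker lists, 7 enteric neuron and glia markers, at 14.5 to 24.8 CPM in set 2 and 30.0 to 36.1 CPM in set 1, did not overlap. The part of these genes and markers in the members' difference was not tested. Ppargc1a ran the other way (log2 fold change 1.198 ± 0.19, edgeR adjusted p = 0.0013). Leaving out 1 library moved the 17 to 5, 7 and 11 (set 1 replicates 1, 2 and 3) and to 7, 2 and 28 (set 2 replicates 4, 5 and 6), and set 1 replicates 2 and 3, the closest pair of replicates by their counts, gave 9 when added up as 1 library.

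Between normal tissues, WT stomach and WT cecum differed in few members. In stomach 10 were lower and 3 higher, where 21.6% of all genes were lower and 22.1% higher, so both counts were under the background. The members' median was -0.10 on the log2 scale, against 0.04 over all genes. For 6 members all stomach libraries were below all cecum libraries and for 5 above, against 25.2% and 26.2% of all genes. The higher members were all listed under complex I. Ndufa4 had 327, 359.9 and 239 CPM in stomach, against 87.5, 92.4 and 68.1 CPM in cecum, with no overlap (log2 fold change 1.90 ± 0.23, edgeR adjusted p = 2.6e-06). Ndufs8 (log2 fold change 0.56 ± 0.13, edgeR adjusted p = 0.0024) and Ndufb11 (log2 fold change 0.55 ± 0.15, edgeR adjusted p = 0.0072) were higher as well. Uqcrfs1 had 281, 300.1 and 223 CPM in stomach, against 512, 543 and 309.7 CPM in cecum (log2 fold change -0.76 ± 0.20, edgeR adjusted p = 0.0052). Sdha had 427, 422 and 387 CPM in stomach, against 618, 660.4 and 561 CPM in cecum (log2 fold change -0.57 ± 0.11, edgeR adjusted p = 0.00035). Atp5b had 2401, 2353 and 2045 CPM in stomach, against 2443, 2299 and 2039 CPM in cecum, and did not pass (log2 fold change 0.00 ± 0.16, edgeR adjusted p = 0.99). Markers of parietal cells, which are rich in mitochondria, summed to 8436 to 16733 CPM in stomach and 9.11 to 42.9 CPM in cecum. Of 9 listed markers 8 were found. Other lists did not overlap between stomach and cecum either. Gastric surface markers were at 91829 to 104406 against 7.16 to 666 CPM, and chief cell markers at 115613 to 160901 against 1.95 to 374. Colonocyte markers were at 36.8 to 112 against 21989 to 40089 CPM, and leukocyte markers at 41.9 to 76.9 against 237 to 662. Fat markers were at 59.7 to 73.0 against 9.79 to 11.8 CPM, and proliferation markers at 526 to 538 against 197 to 418. The part of these markers was not tested.

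Other genes of energy metabolism also differed between these tissues. Fatty acid oxidation and ketogenesis genes were lower in stomach in 15 of 20 cases and higher in 1 (median -0.73), and glycolysis genes lower in 9 of 16 and higher in 1 (median -0.81). Among all genes tested 21.6% were lower and 22.1% higher. The tricarboxylic acid cycle list was split, with 3 lower and 3 higher, among them Idh2 at 291 ± 68.8 CPM in stomach and 119 ± 10.6 CPM in cecum (log2 fold change 1.29 ± 0.16, edgeR adjusted p = 2.2e-06). The receptor Esrrg averaged 219 ± 83.5 CPM in stomach and 1.62 ± 1.201 CPM in cecum (log2 fold change 7.04 ± 1.04, edgeR adjusted p = 2.0e-05), and Cox4i1 was lower (log2 fold change -0.73 ± 0.24, edgeR adjusted p = 0.016). The 10 lower members became 5 without WT cecum replicate 1, 4 without WT cecum replicate 2 and 5 without stomach replicate 3, and 6 in a fit of these groups alone.

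In ileum no member passed the test between the genotypes. Between the libraries labelled Cdx2-/-;Apc+/- and those labelled Apc+/-, 0 members rose or fell in edgeR and 0 in DESeq2, where 0.0488% of all genes fell and 0.395% rose, and 3 members had an unadjusted p under 0.05. On the log2 scale the members' median was -0.06, against 0.03 over all genes. For 6 members all compound mutant libraries were below all Apc+/- libraries and for 0 above, against 4.93% and 6.25% of all genes. Ndufs1 had 81.2, 65.0 and 80.2 CPM in compound mutant ileum, against 83.2, 77.8 and 80.0 CPM in Apc+/- ileum (log2 fold change -0.09 ± 0.11, edgeR adjusted p = 0.91). Atp5b had 951, 994 and 998 CPM in compound mutant ileum, against 1082, 1045 and 1169.7 CPM in Apc+/- ileum (log2 fold change -0.16 ± 0.16, edgeR adjusted p = 0.84). Cox6a1 had 71.2, 152 and 85.3 CPM in compound mutant ileum, against 102, 93.5 and 122 CPM in Apc+/- ileum, and the high library was replicate 2 (log2 fold change -0.04 ± 0.29, edgeR adjusted p = 0.99). The same library was high for Cox7a1, at 2.59, 17.6 and 3.25 CPM, against 9.44, 5.81 and 14.0 CPM in Apc+/- ileum (log2 fold change -0.31 ± 0.59, edgeR adjusted p = 0.96). It also held the most Cdx2 and the most enterocyte marker signal of the group, as given above. Cox7b stood out in Apc+/- ileum replicate 2, at 83.1, 80.3 and 88.2 CPM in compound mutant ileum and 92.0, 200.4 and 89.2 CPM in Apc+/- ileum (log2 fold change -0.60 ± 0.26, edgeR adjusted p = 0.42). None of the followed pathway lists had a member that passed. Some marker lists did not overlap between compound mutant and Apc+/- ileum. Gastric surface markers were at 555 to 7507 against 326 to 511 CPM, and chief cell markers at 10.1 to 286 against 5.35 to 6.33. Fat markers were at 42.3 to 80.7 against 14.9 to 19.2, and neuron and glia markers at 22.9 to 23.7 against 8.98 to 10.1. Pericyte and vessel markers were at 408 to 420 against 277 to 311, and proliferation markers at 491 to 737 against 781 to 1031. Their part was not tested.

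The difference between the organs was tested as the ileum change minus the Cdx2-/- against WT cecum change. It was positive for 53 of 79 members and negative for 0, where 17.8% of all genes were positive and 17.2% negative, with a median of 0.82 on the log2 scale, against 0.01 over all genes. By complex 24, 4, 6, 7 and 12 genes of complexes I to V passed. For Ndufs1 the change was -0.09 in ileum and -1.04 in cecum, a difference of 0.95 ± 0.15 (SE, edgeR adjusted p = 9.7e-05). For Uqcrfs1 it was -0.06 in ileum and -1.75 in cecum, a difference of 1.69 ± 0.27 (SE, edgeR adjusted p = 0.00011). For Cox6a1 it was -0.04 in ileum and -1.98 in cecum, a difference of 1.94 ± 0.38 (SE, edgeR adjusted p = 0.00061). For Cox7a1 it was -0.31 in ileum and -4.56 in cecum, a difference of 4.25 ± 0.80 (SE, edgeR adjusted p = 0.00047). The organs also differ in design, since both ileum groups carry Apc+/- and neither cecum group does. The Cdx2 level in ileum, given above, overlapped between the labels, and its part in the difference was not tested. The 53 became 35 without WT cecum replicate 1 and 28 with set 1 alone. Library totals in place of TMM factors moved the all-gene median to -0.44 and the members' to 0.34, and 18 members then passed.

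**Figure D4:**
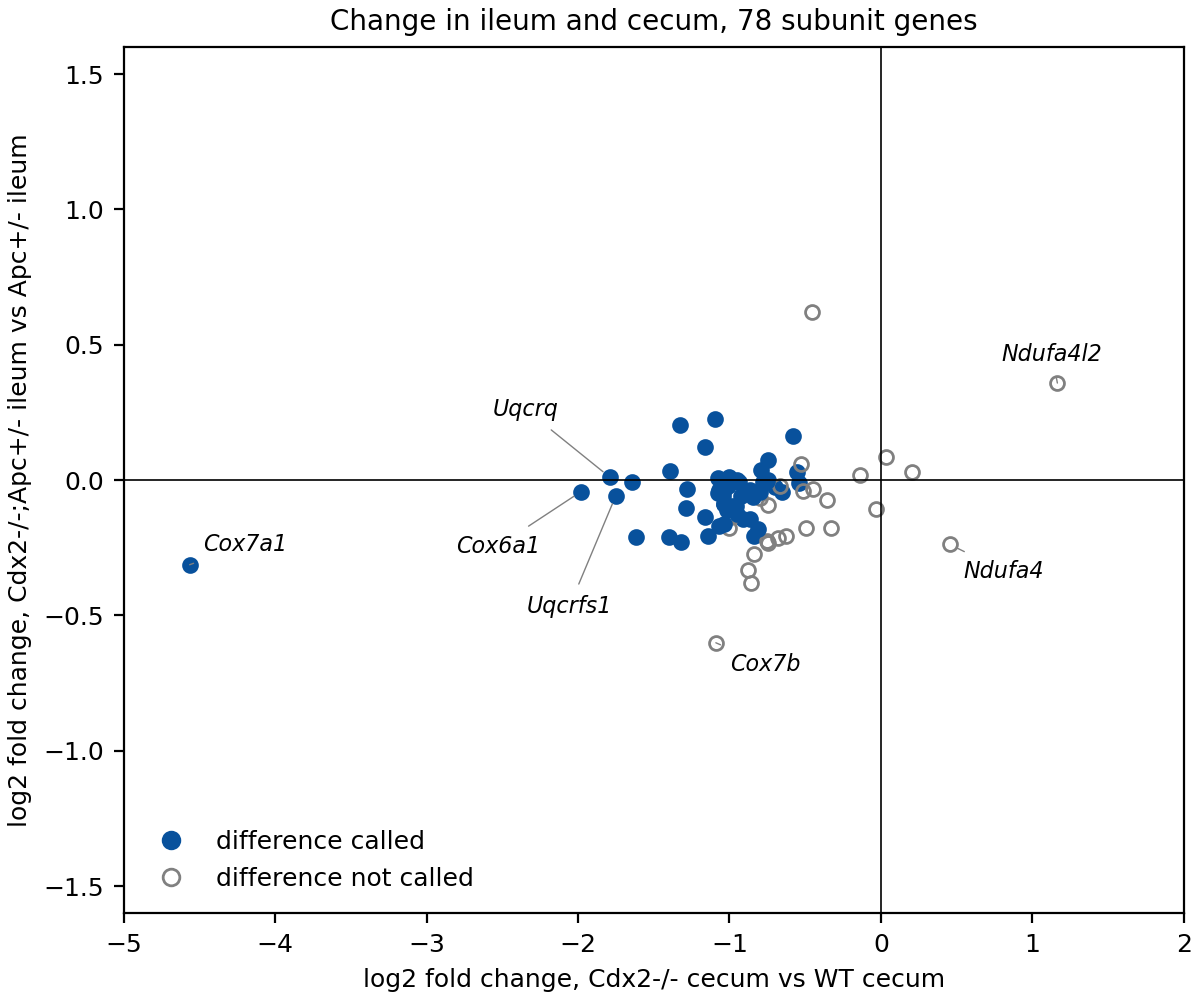
Log2 fold change of 78 members in ileum (compound mutant against Apc+/-, y axis) and in cecum (Cdx2-/- against WT, x axis); Cox8b is left out. Filled points are members whose difference between the organs passed the test; most points lie left of 0 on the cecum axis and near 0 on the ileum axis, with Cox7a1 at -4.56 in cecum and -0.31 in ileum.

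Compound mutant ileum and compound mutant cecum, which share genotype and treatment, differed in few members. In ileum 6 were lower and 0 higher, where 6.60% of all genes were lower and 9.59% higher, so the lower count was near the background. The median log2 fold change was -0.21, against 0.02 over all genes, and for 26 members all ileum libraries were below all cecum libraries, against 14.4% of all genes. Cox5a had 11.1, 15.4 and 16.2 CPM in ileum, against 27.2, 30.2 and 31.9 CPM in cecum, with no overlap (log2 fold change -1.06 ± 0.21, edgeR adjusted p = 0.0030). The other members lower in ileum were Cox6c (-0.70), Cox7c (-0.74), Uqcrb (-0.72), Ndufa1 (-0.79) and Ndufb4 (-0.58). Of 72 cytosolic ribosomal protein genes 36 were lower in ileum (median -0.49). Marker lists without overlap were 9 enterocyte markers, at 324 to 13655 CPM in ileum and 159 to 283 CPM in cecum, 8 smooth muscle markers, at 414 to 1495 CPM in ileum and 1575 to 2095 CPM in cecum, 5 fibroblast markers, at 1387 to 2050.3 CPM in ileum and 2096 to 2506 CPM in cecum, and 5 pericyte and vessel markers, at 408 to 419.6 CPM in ileum and 426 to 509 CPM in cecum, and their part in the result was not tested. The 6 members lower in ileum became 2 without cecum replicate 1, 1 without cecum replicate 2, 3 without ileum replicate 1 or replicate 3, and 0 in a fit of these groups alone.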

How the data were processed

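The members and the gene lists were chosen with earlier results of these data known. Values were raw read counts per gene, deposited by the authors; per the submitters' processing notes CASAVA, TopHat2 2.0.11, HTSeq 0.5.3p3 and GRCm38 were used. Per the labels' protocols, RNA was extracted with Trizol and made into TruSeq mRNA libraries, which do not mark strand, so reads of a gene and its antisense partner cannot be told apart. The sources used here do not give the counting options or annotation release. Reads without a gene (6.62% to 10.4% of reads), ambiguous reads (2.00% to 3.44%) and those aligned to more than 1 place (17.3% to 30.0%) stayed out of library sizes.

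Symbols came from GENCODE M21, in which 37693 genes matched (99.8% of gene reads). Of 83 annotated genes that meet the name rule, 82 were in the tables, and a second identifier for Atp5o was not. One fit of all 24 libraries in 8 groups used edgeR 4.0.16 (R 4.3.3; filterByExpr, TMM, quasi-likelihood F test) over 20502 genes with Benjamini-Hochberg adjustment, called at 0.05, without a replicate block. Standard errors are the size of the log2 fold change over the square root of F. Where both Cdx2-/- sets enter, the error holds the spread within sets and not between them. Libraries of set 1 replicates 2 and 3 were the closest pair (chi-square per degree of freedom 7.03, other pairs 53 to 507, genes with at least 20 reads), above sampling noise, and were kept apart. Shared replicate numbers were checked in 21 pairs of groups, and only in Cdx2+/- and WT cecum did every same-numbered pair deviate together (correlations 0.143, 0.115 and 0.218); the labels do not say what a number marks. RPKM used total exon length.

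Named members were fixed core subunits of each complex, isoform pairs, the 3 largest changes each way at 10 CPM or more, and X-linked members between the Cdx2-/- sets. Of pathway genes, up to 2 per list and comparison with the smallest p were eligible, besides 8 fixed genes, and some of these are not reported here. Members listed to account for a count were named after their values were seen. The fit was tested on counts simulated from the WT cecum profile, with few genes changed. That setting lacks the wide changes between the real groups, so it cannot show how the fit handles them. Alternatives were library totals or size factors, no filter, DESeq2 1.42.0, fits of only the groups compared, a replicate block, each Cdx2-/- set alone, merged replicates and each library left out. Figures used matplotlib 3.10.9.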

Additional observations from a re-analysis of the deposited data

Results flagged for a closer look

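The change between genotypes in ileum (compound mutant against Apc+/-) was less negative than that in cecum (Cdx2-/- against WT) for 17 of the named members, by a test of the difference itself in edgeR. The difference was positive for 53 of all 79 tested members, and for 17.8% of all genes tested, with 17.2% negative. Named members include those with the largest called differences here, such as Uqcrq, so the count of 17 is partly set by that choice. In complex I the ileum minus cecum difference in log2 change was 0.53 for Ndufa9, 0.95 for Ndufs1 and 0.99 for Ndufv1. In complex II it was 0.82 for Sdha and 1.18 for Sdhb. In complex III it was 0.87 for Uqcrc1, 1.69 for Uqcrfs1 and 1.80 for Uqcrq. In complex IV it was 1.41 for Cox5a, 1.94 for Cox6a1, 0.95 for Cox6c, 4.25 for Cox7a1 and 1.43 for Cox8a. The value for Cox8b was 5.28, but this gene had 0, 17 and 1 reads in compound mutant ileum and 0, 1 and 0 in Apc+/- ileum, so its size is no measure. In complex V it was 0.87 for Atp5b, 0.91 for Atp5g1 and 1.02 for Atp5g3. Without compound mutant ileum replicate 2, Uqcrq (0.82) and Cox8b (2.14) no longer passed. The Cdx2 level overlapped between the compound mutant and the Apc+/- ileum libraries, and whether that bears on these differences was not tested.

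Cox7b2, a subunit form of complex IV, was at 0.0218 CPM in replicate 1 of Cdx2-/- cecum set 1, which is 2 reads, and at 0 in the other 5 Cdx2-/- cecum libraries. It was flagged as a sample far from the rest of its group, a criterion that chance meets in about 1 of 20 groups. In all 36 members were examined. Where the other libraries are at 0, any library with reads meets the criterion, whatever its level.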

How the results depend on the processing

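Over all alternatives, values of named genes stayed on their side of the threshold in 6224 cases, no longer passed in 414, newly passed in 105 and changed sign in 5. A change of sign was counted only for values that passed in the report or in the alternative. Values that passed in neither were counted among the 6224 whatever their sign. With library totals only, log2 fold changes were 0.41 for Atp5g2 and 0.32 for Cox7a2l (Cdx2-/- against WT cecum), 0.33 for Cox7a2l (compound mutant against WT cecum) and 0.060 for Sdha (Cdx2-/- against Cdx2+/- cecum). With set 2 alone, Ppargc1a was at 0.18 in Cdx2-/- against Cdx2+/- cecum. The counts that moved by over 1.5 times follow, and the cause was not tested. Cdx2-/- against WT cecum: members higher, 0 in the report, were 5 with library totals, 1 in DESeq2, 2 with a replicate block (set 2 left out), 2 with set 1 alone and 0 to 1 with a library left out. Cdx2+/- against WT cecum: higher, 2, was 1 in a fit of these groups alone, 1 with either replicate block (the one on these groups alone was added after seeing the data) and 1 to 2 with a library left out, and lower, 13, was 6 to 29. Compound mutant against WT cecum: higher, 0, was 1 with library totals. Compound mutant against Cdx2-/- cecum: lower, 7, was 17 with library totals, 14 in DESeq2, 42 with the replicate block, 35 with set 1 alone, 0 with set 2 alone and 2 to 17 with a library left out. Stomach against cecum: lower, 10, was 6 in a fit of these groups alone and 4 to 14 with a library left out. Compound mutant ileum against cecum: lower, 6, was 0 in a fit of these groups alone and 1 to 8 with a library left out, and higher, 0, was 1 with library totals and 0 to 2 with a library left out. Set 2 against set 1: lower, 17, was 11 in a fit of these groups alone, 9 with replicates 2 and 3 of set 1 merged and 2 to 28 with a library left out. Cdx2-/- against Cdx2+/- cecum: lower, 62, was 34 with library totals, 26 with the replicate block, 15 with set 1 alone and 37 to 69 with a library left out, and higher, 3, was 2 to 3. Ileum minus cecum change: higher, 53, was 18 with library totals, 35 with the replicate block, 28 with set 1 alone and 35 to 64 with a library left out, and lower, 0, was 2 with library totals, 1 without a filter, 1 with the block, 1 with set 1 alone and 0 to 1 with a library left out. The block used set 1 only, and outside Cdx2+/- and WT cecum the groups' libraries share only a number. Fewer than 20 reads limit Cox6a2 and Cox8b in most libraries.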
